A study of Mus musculus with 18 samples.

Results

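Chief cells, the enzyme-secreting cells at the base of the corpus glands, were compared with mucous neck cells of the same mice. The chief cells were the 180 cells of cluster 10 in the authors' annotation of dataset 2 (73 in pool K and 107 in pool T), and the neck cells were the 1074 cells of clusters 0, 2 and 7 (545 and 529). Cluster 12, a further neck cluster of 173 cells with high *Cblif*, was kept out of the neck group and is described on its own. The compared cells were 1254 of the 3993 kept cells of dataset 2, and 4484 cells were kept in the whole series.

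All mice were 10-week-old male wild-type C57BL/6J with no treatment named, and each pool held the cells of 3 mice prepared by 1 operator. Dataset 2 was made from corpus gastric units, dissociated with collagenase and then pronase, from which Hoechst33342(+),ToPro3(-) cells were sorted onto 6 plates a pool. Dataset 1 was made in the same strain, sex and age from corpus and antrum together, with cells of 2 further pools, dead cells removed, sorted onto 3 plates each. Quartz-Seq2 places 1 cell in a well, marks its transcripts with a well barcode and a unique molecular identifier (UMI), and counts each molecule once. For each pool, the UMIs of all cells of a type were added up, and these sums, 2 for each type, were the samples compared. Levels are given as CPM, UMIs per 1000000 after scaling of the sums to each other, and fold changes compare chief with neck cells as they stood, not cells followed over time.

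In the mouse corpus, isthmus progenitors give rise to mucous neck cells, and neck cells have long been described as a source of chief cells lower in the gland. Neck cells make the gel-forming mucin MUC6 and trefoil factor TFF2. Chief cells fill apical granules with the zymogen pepsinogen and, in mice, with gastric intrinsic factor, the vitamin B12 carrier encoded by *Cblif*. The transcription factors XBP1 and BHLHA15 (MIST1) are known for building the rough endoplasmic reticulum and the granules of such cells.

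The plates of dataset 2 held from 10540256 to 12850942 UMIs each. Chief cells had a median of 34844 UMIs and 5184.5 detected genes, against 22841 UMIs and 5735.5 genes in neck cells. When each cell was thinned to 10000 UMIs, chief cells showed a median of 2470 genes and neck cells 3699, with 3 neck cells left out as shallower. A plate held 7 to 23 chief cells and 73 to 104 neck cells. The 384 well barcodes were used again on every plate, so a shared barcode does not mark a shared cell. Mitochondrial transcripts took a median of 3.52% of UMIs in chief and 5.19% in neck cells, and 98.9% of chief and 95.3% of neck cells were called in G1 by the authors' scores.

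The levels of the markers behind the labels are given first. The authors named clusters from known marker genes, and cluster 12 was set apart for its high *Cblif*. The split in *Cblif* and *Muc6* was therefore partly fixed beforehand. *Cblif* (chromosome 19, 11724918 to 11740811 in GRCm39) had 22776 CPM in chief cells of pool K and 22017 CPM in pool T, and 311 and 957 CPM in neck cells. *Muc6* (chromosome 7, 141213373 to 141241641, overlapping *Ap2a2* on the other strand) had 1442 and 1460 CPM in neck cells and 30.2 and 71.2 CPM in chief cells. Both markers separated the groups on all 12 plates. On single plates *Cblif* lay between 15596 and 30805 CPM in chief cells and between 182 and 1869 CPM in neck cells. Of 5 chief cell markers, *Cblif*, *Pgc*, *Chia1* and *Bhlha15* were higher in chief cells. The fifth, *Pga5*, went against the label and is described with the genes lost.

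Single cells showed the same split. After thinning, a *Muc6* UMI was found in 97.4% of neck cells and 12.2% of chief cells, and the chief share was no higher than the 13.7% of mature pit cells, which should lack this mucin. A *Cblif* UMI was found in 99.4% of chief and 47.3% of neck cells, against 20.8% of parietal and 12% of mature pit cells. No chief cell lay at or below the neck median of *Cblif* per 10000 UMIs, and 9 of the 1074 neck cells reached the chief median. The ranges overlapped, with 439 neck cells at or above the lowest chief cell. Of the 180 chief cells, 179 lay at or below the highest neck cell. The plot of single cells places most chief cells at high *Cblif* and low *Muc6*. Cluster 12 had medians of 62.2 *Cblif* and 11.7 *Muc6* UMIs per 10000 but spread widely, with 5th percentiles of 0.612 and 0.865.

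**Figure D1:**
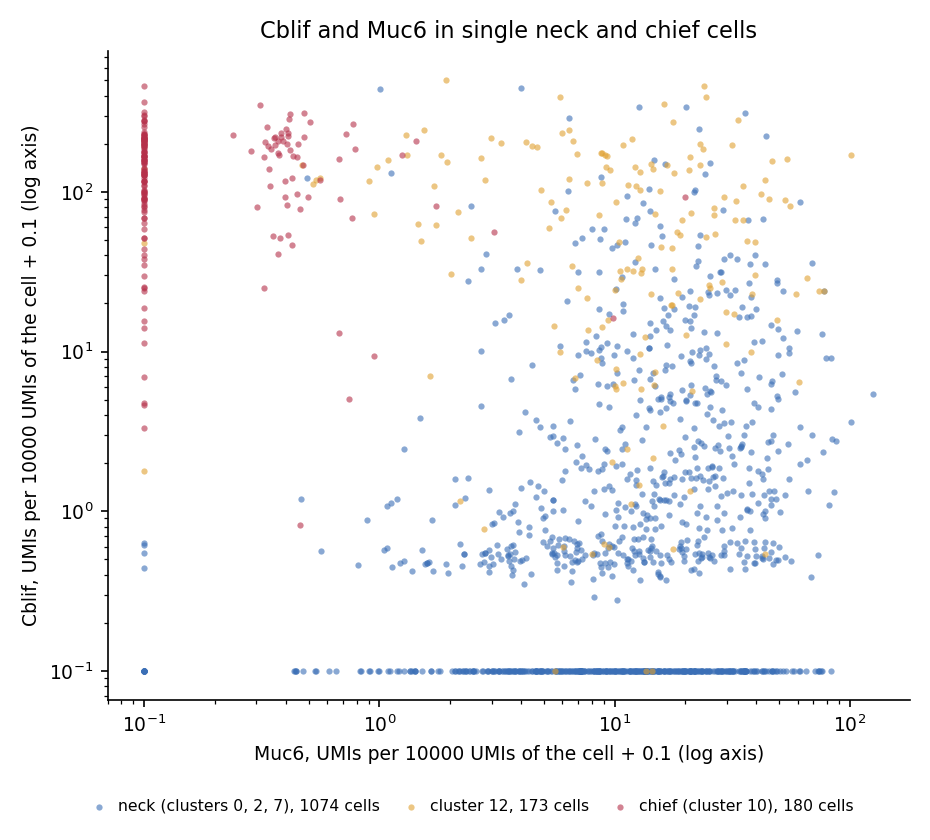
UMIs of *Muc6* (horizontal, log axis) and *Cblif* (vertical, log axis) per 10000 UMIs of a cell, with 0.1 added, each point 1 cell of dataset 2. Most of the 180 chief cells sit at the upper left, the 1074 neck cells spread over the right side with a median *Muc6* of 13.1 per 10000, and the 173 cells of cluster 12 have medians of 62.2 for *Cblif* and 11.7 for *Muc6*, with cells at 0 for each.

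Across 12567 genes tested with edgeR's quasi-likelihood test, 2644 (21.0% of those tested) were higher and 2750 (21.9%) lower in chief cells at an adjusted p under 0.05. The clusters were made from these same counts, so small p-values are partly a product of the clustering. In 776 genes (6.17%) every plate of chief cells lay above every plate of neck cells, and in 889 (7.07%) every chief plate lay below.

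The balance between genes gained and lost depended on the scaling. *Pgc*, *Clps* and *Pla2g1b* together took 43.2% and 42.9% of the UMIs of chief cells in pools K and T, against 14.4% and 15.1% in neck cells. Outside these 3 genes a chief cell carried 20201 and 20448 UMIs on average and a neck cell 19788 and 19992. Outside the 7 genes with the largest rise in CPM, a chief cell carried 18145 UMIs in both pools and a neck cell 19765 and 19949. With library sizes alone, 670 genes were higher and 8985 lower, and the median log2 fold change of all genes moved by -0.865. With the number of cells as the library size it moved by -0.251, and 1635 genes were higher and 4362 lower. Lists are therefore read below against the median of all genes, which was -0.05 on the log2 scale. Counts of list members called stand against the 21.0% of all genes called higher and the 21.9% called lower. Of the 434 list genes, 381 passed the filter on low counts.

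**Figure D2:**
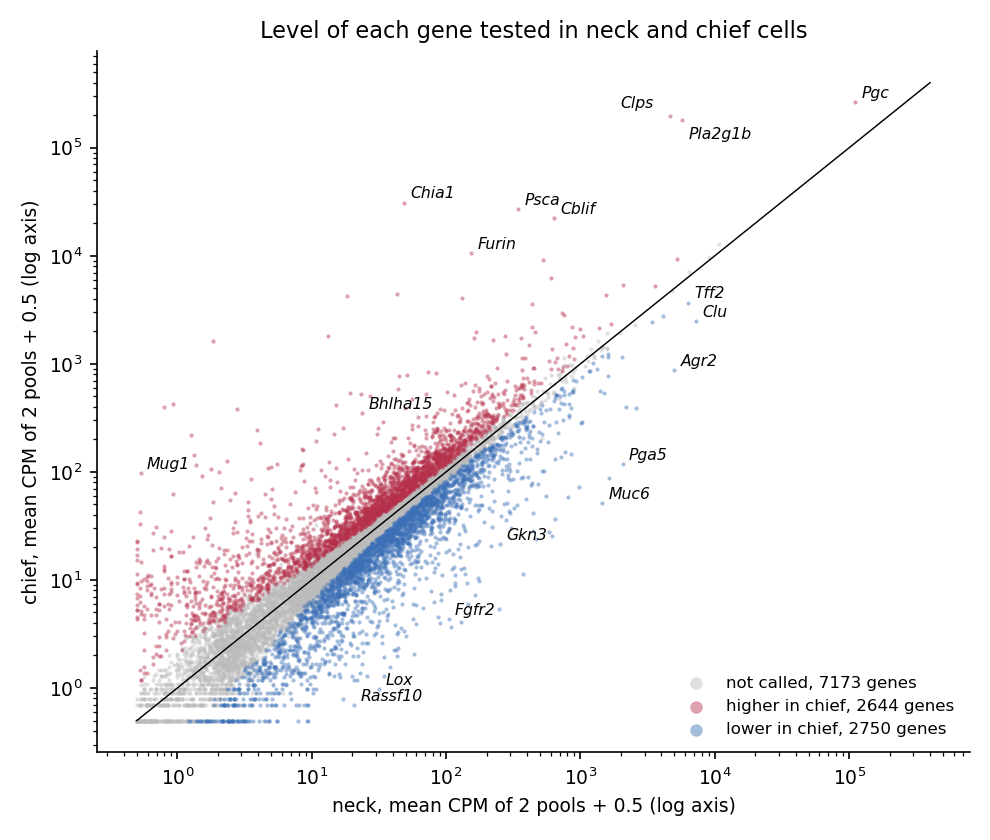
Mean CPM of the 2 pools in neck (horizontal) and chief cells (vertical), both with 0.5 added and on log axes, each point 1 of 12567 genes and the line marking equal levels. Red points are the 2644 genes higher and blue points the 2750 lower in chief cells, with *Clps*, *Pla2g1b* and *Chia1* far above the line and *Pga5* and *Muc6* far below it.

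The transcripts gained in the largest amount coded for secreted digestive proteins. *Clps*, which encodes the lipase cofactor colipase (chromosome 17, 28777123 to 28787857), went from 2968 and 6355 CPM in neck cells to 194880 and 196060 CPM in chief cells, where it made up 13.2% and 13.1% of all UMIs. *Pla2g1b*, a secreted phospholipase A2 of pancreatic juice (chromosome 5, 115603154 to 115612783), went from 4722 and 6740 CPM to 177190 and 180910 CPM. *Pgc*, the pepsinogen C gene (chromosome 17, 48037760 to 48045407), was already abundant in neck cells at 108020 and 112380 CPM and reached 267070 and 265090 CPM in chief cells. Chief cells were thus 41.9-fold higher in *Clps*, 31.2-fold higher in *Pla2g1b* and 2.41-fold higher in *Pgc*, with adjusted p = 3.67e-09, 8.60e-11 and 2.37e-07. For each of the 3 genes no chief plate overlapped a neck plate.

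*Chia1*, an acidic chitinase of the stomach (chromosome 3, 106020545 to 106039436), showed the largest fold change among the 10 genes with the largest rise in CPM. It had 39.6 and 56.0 CPM in neck cells, close to the 45.4 CPM of parietal and 35.4 CPM of mature pit cells, and 26380 and 35629 CPM in chief cells. Its log2 fold change was 9.34 ± 0.44 (SE), with adjusted p = 6.45e-10. Chief plates ranged from 3575 to 59662 CPM for *Chia1* and from 21378 to 32412 CPM for *Psca*, and neck plates of *Chia1* from 30.3 to 77.9 CPM.

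*Psca*, which encodes a small surface protein anchored by a lipid (chromosome 15, 74586682 to 74588918), was 78.3-fold higher in chief cells. It had 26405 and 27397 CPM there against 363 and 325 CPM in neck cells. The gene stands in the list of pit markers, and its mean was 8004 CPM in mature pit and 11522 CPM in parietal cells, so chief cells held the highest level of these types. *Ly6e*, another gene of this protein family, was 10.2-fold higher, at 6019 and 6334 CPM against 608 and 598 CPM. *Furin*, a protease that cleaves proproteins in the secretory pathway, had 9960 and 11343 CPM in chief and 93.1 and 212 CPM in neck cells. *Pdia2*, a disulfide isomerase known from the pancreas, was 17.3-fold higher, and *Nupr1*, a small stress-induced nuclear protein, 104-fold higher.

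**Figure D3:**
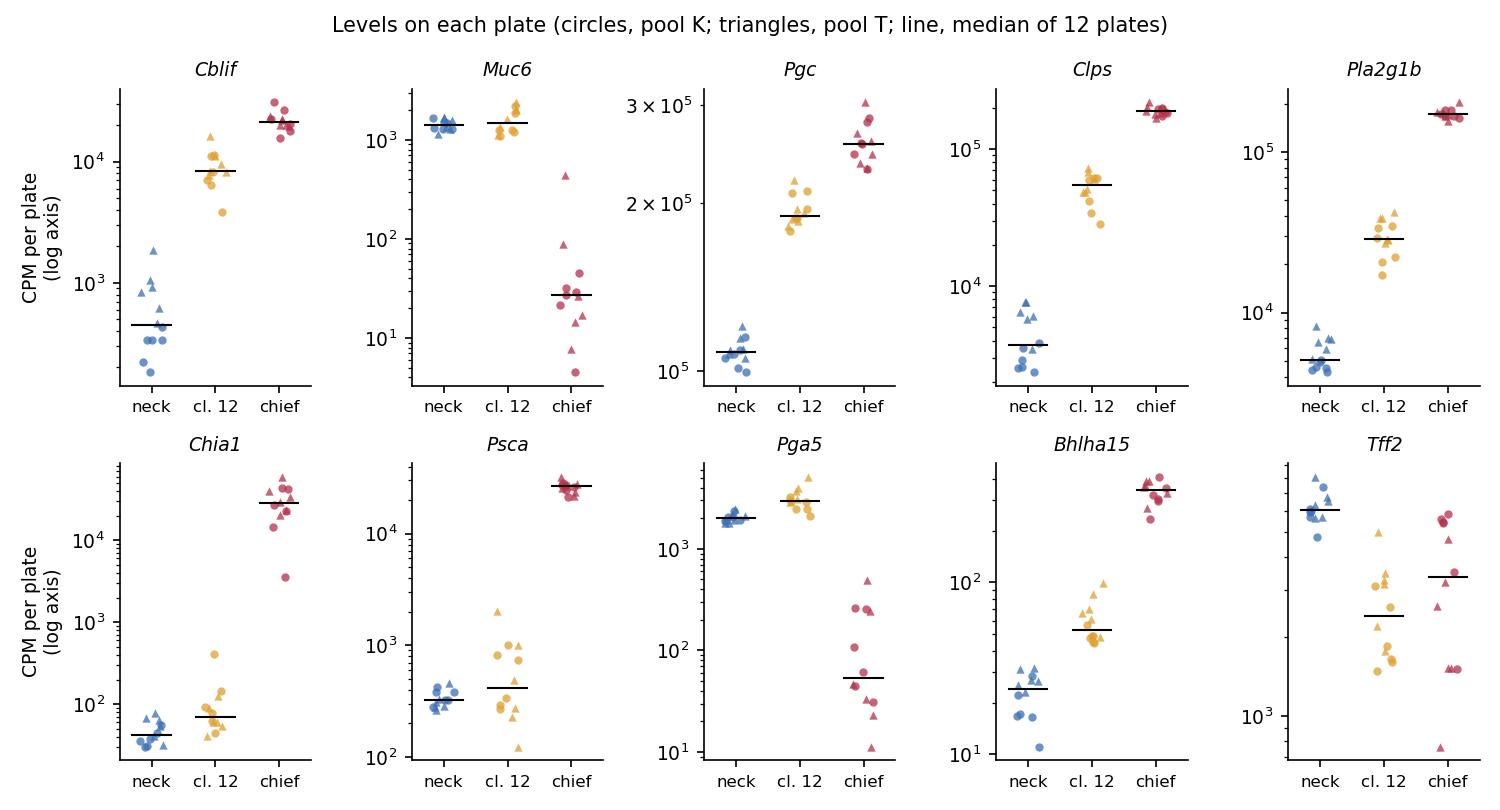
CPM of 10 genes on each of the 12 plates (log axes whose range differs between panels) in neck cells, cluster 12 (cl. 12) and chief cells, circles for pool K and triangles for pool T, with the median as a line. *Clps*, *Pla2g1b*, *Psca*, *Chia1* and *Bhlha15* separate chief from neck plates upwards and *Muc6* and *Pga5* downwards, while *Tff2* overlaps.

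Among the 15 genes with the largest rise by fold, several were close to absent in neck cells. *Gabra4*, a GABA receptor subunit, and the transcript *D930019O06Rik* had no UMI in either neck sum and 95 and 96 UMIs in chief cells, at least 112-fold and 114-fold higher against a floor of 3 UMIs in each neck sum. *Mug1*, a protease inhibitor of the alpha-2-macroglobulin family, had 1 UMI in neck and 423 in chief cells, a ratio of 3010 with a 95% exact interval for counting error from 536 to 119000. *Creg2*, which overlaps *D930019O06Rik* on the other strand, had 1 and 183 UMIs, and *Ranbp3l* had 1 and 140. *Gabra4* lost its call under DESeq2, with an adjusted p of 0.0975.

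Measured in both types, *Try10* and *Try4*, 2 trypsinogen genes, were 1219-fold and 236-fold higher, with 1501 and 1786 CPM of *Try10* in chief cells. These genes belong to a family of near-identical copies, so their reads may have been divided between copies. *Pnliprp1*, a pancreatic lipase relative, was 168-fold higher, at 383 and 382 CPM in chief cells. *Sostdc1*, a secreted antagonist of BMP and Wnt ligands, rose from 0.256 and 0.6 CPM to 418 and 431 CPM. The others were *Gm12888*, *Necab1* (a calcium-binding protein), *Prom2*, *Lama4* (a laminin chain) and *Slc27a2* (a fatty acid transporter), with log2 fold changes of 10.35, 8.16, 7.44, 7.24 and 7.19. Of these 15 genes, 14 separated all plates, the exception being *Gabra4*, against 6.17% of all genes in that direction. The 15 were picked by fold in these same cells, which favours such a separation.

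The zymogen list was not uniform. Of its 8 members tested, 4 were higher in chief cells (*Cblif*, *Pgc*, *Chia1* and *Clps*) and 2 lower (*Pga5* and *Bpifb1*), and the median lay 0.537 above that of all genes. *Pga5*, a pepsinogen A gene (chromosome 19, 10646320 to 10655435), had 2067 and 2062 CPM in neck cells and 120 and 114 CPM in chief cells, a 17.7-fold fall (log2 fold change -4.15 ± 0.21 (SE), adjusted p = 1.31e-09). All 12 neck plates lay between 1804 and 2448 CPM and all chief plates between 11.3 and 494 CPM. A UMI of *Pga5* was found after thinning in 99.4% of neck cells and 22.2% of chief cells, the latter close to the 24% of parietal cells. *Bpifb1*, a secreted lipid-binding protein, fell from 521 and 905 CPM to 137 and 138 CPM.

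Of 14 zymogenic factors and granule genes tested, 7 were higher and 5 lower, and the median lay 0.671 above that of all genes. *Bhlha15* was 15.0-fold higher, at 340 and 360 CPM against 18.5 and 28.0 CPM, and *Xbp1* 2.51-fold higher, at 2227 and 2123 CPM against 845 and 888 CPM. After thinning, 81.7% of chief cells had a *Bhlha15* UMI, against 19.5% of neck and 1.85% of parietal cells. *Copz2*, a coatomer subunit, was 4.60-fold and *Rab26*, a small GTPase of granules, 17.6-fold higher, the latter at 6.84 and 3.52 CPM. *Sytl2*, a RAB27 effector that tethers vesicles, went the other way, from 87.1 and 75.8 CPM to 2.85 and 8.61 CPM.

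The list for translocation, folding and quality control in the endoplasmic reticulum (ER) moved largely in one direction. Of 44 members tested, 37 were higher in chief cells and 2 lower, and the median lay 0.956 above that of all genes. With library sizes alone the counts were 18 and 9. *Derl3*, a channel component that returns misfolded proteins to the cytosol, went from 10.4 and 10.7 CPM to 296 and 201 CPM. *Edem2*, *Herpud1* and *Ssr4* were 5.36-fold, 4.99-fold and 4.82-fold higher, and *Hspa5*, the main ER chaperone, went from 1404 and 1690 CPM to 4982 and 3679 CPM. The exceptions were *Ern2*, the IRE1 form known from mucous cells, which was 7.24-fold lower at 33.6 and 26.6 CPM, and *Pdia3*, an isomerase that acts with calnexin and calreticulin on glycoproteins, 1.60-fold lower.

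Promoters of this list often held the ER stress response element (ERSE), the letters CCAAT and CCACG with any 9 bases between them, known to be bound by ATF6 and XBP1 with NF-Y. It was found on either strand in the 250 bases before the start of 9 of the 36 list genes with a RefSeq promoter (25%), against 0.113% of all 32851 promoters of that length. Of these 9 genes, *Derl3*, *Creld2*, *Syvn1*, *Dnajc3*, *Hspa5*, *Hsp90b1*, *Calr* and *Pdia6* were higher in chief cells and *Canx* was not called. In the whole list 37 of 44 tested genes were higher. The list takes in genes of the unfolded protein response, so its share of matches describes the choice of list and not chief cells. A match is a string of letters and no measured binding, and the search was made after the values of the list were known. The promoters of *Derl3* (chr10:75893148-75893397, plus strand), *Creld2* (chr15:88819396-88819645, plus strand) and *Hspa5* (chr2:34771840-34772089, plus strand) are printed from RefSeq on GRCm38.p6, because these genes differ widely in fold with the same element, whose fixed letters are in capitals (on the complementary strand in *Derl3* and *Creld2*).

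Derl3: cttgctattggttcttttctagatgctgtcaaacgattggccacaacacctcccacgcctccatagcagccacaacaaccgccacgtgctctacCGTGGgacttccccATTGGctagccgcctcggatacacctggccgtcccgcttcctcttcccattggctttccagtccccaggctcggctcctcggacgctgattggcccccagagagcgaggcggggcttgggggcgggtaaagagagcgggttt

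Creld2: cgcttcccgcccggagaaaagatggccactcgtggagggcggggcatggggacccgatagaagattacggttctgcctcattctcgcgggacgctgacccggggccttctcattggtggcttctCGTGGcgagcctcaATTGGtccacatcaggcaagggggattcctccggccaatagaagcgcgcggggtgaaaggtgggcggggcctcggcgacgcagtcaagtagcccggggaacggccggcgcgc

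Hspa5: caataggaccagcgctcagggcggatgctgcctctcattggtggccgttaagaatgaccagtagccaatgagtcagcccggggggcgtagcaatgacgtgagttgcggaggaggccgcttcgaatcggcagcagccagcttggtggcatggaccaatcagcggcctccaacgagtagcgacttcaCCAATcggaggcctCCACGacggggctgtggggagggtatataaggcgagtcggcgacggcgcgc

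The fold changes of these 3 genes were 23.6 for *Derl3*, 4.48 for *Creld2* and 2.80 for *Hspa5*. The first base of the element lay at positions -156, -126 and -65 from the start. The levels of *Creld2* were 662 and 362 CPM in chief cells and 125 and 103 CPM in neck cells, so both chief pools stood above both neck pools.

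Genes of vesicle traffic between ER and Golgi were mostly higher as well. Of 33 genes of COPII and COPI transport tested, 24 were higher and 2 lower, with a median 0.736 above that of all genes, and with library sizes alone 4 were higher and 15 lower. *Tmed6*, a cargo receptor of the p24 family, led the list at 3870 and 4280 CPM against 120 and 142 CPM, a 31-fold difference. *Tmed3*, of the same family, and *Mcfd2*, a partner of the receptor LMAN1, were 4.39-fold and 2.5-fold higher. *Sec16b*, a scaffold of ER exit sites, was 1.93-fold lower.

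Genes of amino acid supply and the response to amino acid shortage had the highest median of all lists with at least 6 members, 1.85 above that of all genes. Of 23 tested, 19 were higher and 1, the creatine synthesis gene *Gamt*, lower. The transporters *Slc38a5*, *Slc7a8* and *Slc7a5* were 19.5-fold, 14.6-fold and 7.29-fold higher. *Phgdh*, the first enzyme of serine synthesis, went from 12 and 13.9 CPM to 118 and 127 CPM. *Asns*, which makes asparagine, went from 247 and 228 CPM to 970 and 861 CPM, and *Pycr1*, which makes proline, from 27 and 34 CPM to 274 and 235 CPM. *Chac1*, a glutathione-degrading enzyme and known target of ATF4, had 1.15 and 7.27 CPM in neck and 74.6 and 140 CPM in chief cells, and *Trib3*, another such target, 0.576 and 1.13 CPM against 5.13 and 9.39 CPM.

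The element known to be bound by ATF4 with C/EBP factors (CARE), TGATGNAA, was found on either strand in 4 of the 23 list genes with a promoter (17.4%), against 3.45% of all promoters. These were *Chac1*, *Asns*, *Pycr1* and *Slc7a11*, of which the first 3 were called higher. In the whole list 19 of 23 tested genes were higher. The list was made of genes of amino acid supply and shortage, with earlier results of these data known. Its share of matches therefore describes the choice of list, and a match is no measured binding. The promoters of *Chac1* (chr2:119350992-119351241, plus strand), *Asns* (chr6:7693210-7693459, minus strand) and *Pycr1* (chr11:120643749-120643998, minus strand) are shown from the same source. The fixed letters of the element are in capitals, on the complementary strand in *Chac1*.

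Chac1: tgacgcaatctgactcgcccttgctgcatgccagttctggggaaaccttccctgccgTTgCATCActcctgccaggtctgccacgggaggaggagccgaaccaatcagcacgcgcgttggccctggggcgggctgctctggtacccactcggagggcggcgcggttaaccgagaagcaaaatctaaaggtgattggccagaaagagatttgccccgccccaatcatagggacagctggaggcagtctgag

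Asns: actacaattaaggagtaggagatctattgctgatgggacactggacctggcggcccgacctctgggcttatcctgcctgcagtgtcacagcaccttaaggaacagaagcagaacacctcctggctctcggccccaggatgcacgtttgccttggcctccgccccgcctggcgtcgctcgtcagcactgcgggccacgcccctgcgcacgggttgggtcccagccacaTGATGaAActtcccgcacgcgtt

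Pycr1: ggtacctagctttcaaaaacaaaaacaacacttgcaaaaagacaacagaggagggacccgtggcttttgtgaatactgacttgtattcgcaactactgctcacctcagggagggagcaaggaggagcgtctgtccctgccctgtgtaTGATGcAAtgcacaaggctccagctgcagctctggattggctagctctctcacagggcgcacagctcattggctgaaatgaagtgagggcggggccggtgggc

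The fold changes of the genes with these promoters were 25.5 for *Chac1*, 8.34 for *Pycr1* and 3.86 for *Asns*. In each of them the lower of both chief pools stood above the higher of both neck pools.

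**Figure D4:**
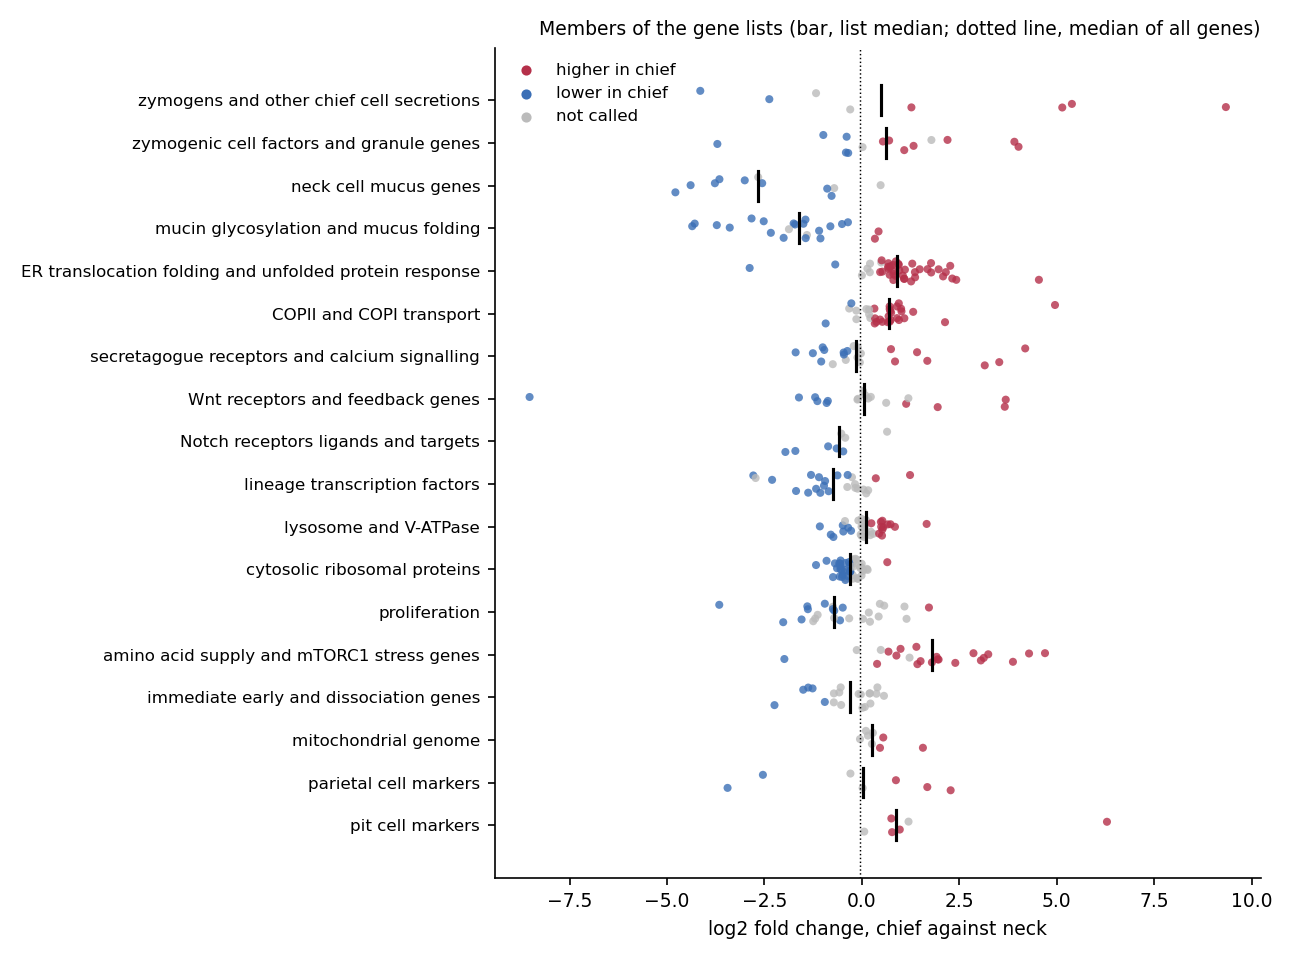
Log2 fold change of chief against neck cells (horizontal) for each tested member of the lists with at least 6 of them (rows), red for genes higher, blue for genes lower and grey for genes not called, with the list median as a bar and the median of all genes, -0.05, as a dotted line. The amino acid, ER and COPII and COPI lists lie to the right and the neck mucus and mucin glycosylation lists to the left.

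The genes lost were led by the mucous programme. Of 11 neck mucus genes tested, 8 were lower in chief cells and none higher, and the median relative to that of all genes was -2.61. *A4gnt*, the enzyme that adds the terminal N-acetylglucosamine of MUC6, went from 611 and 554 CPM to 24.5 and 30.1 CPM, and *Muc6* itself was 28.6-fold lower (log2 fold change -4.78 ± 0.30 (SE), adjusted p = 1.18e-08). The water channel gene *Aqp5* was 13.4-fold and the secreted inhibitor gene *Wfdc2* 7.85-fold lower. *Gkn3* was lower on average but differed between the neck pools, at 108 and 396 CPM, and its plates overlapped with those of chief cells. Against cluster 2 alone its log2 fold change was 0.868, with an adjusted p of 0.433. *Tff2* fell far less than *Muc6*, from 6120 and 6518 CPM to 4746 and 2636 CPM, with plates overlapping. Its adjusted p of 0.0208 became 0.197 without the chief cells of pool T and 0.0731 without the neck cells of pool T, and 0.169 and 0.44 against cluster 0 or cluster 7 alone.

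Mucin glycosylation and mucus folding followed, with 18 of 22 genes lower, 2 higher and a median of -1.56 relative to that of all genes. *Agr2*, the disulfide isomerase that mucins need for folding, went from 5120 and 4897 CPM to 1101 and 652 CPM. *Gcnt1* and *Gcnt3*, which branch O-glycans, were 19.9-fold and 5.11-fold lower, and *Galnt6* and *Galnt7*, which start them, 11-fold and 3.34-fold. The galactosyltransferase gene *B4galt1* was 3.32-fold lower. Of the transcription factors in this list, *Creb3l4* was 7-fold, *Spdef* 2.7-fold and *Creb3l1* 2.14-fold lower. The members called higher, *C1galt1c1* (1.36-fold) and *Galnt1* (1.26-fold), turned lower with library sizes alone, and the call of *C1galt1c1* was lost without the chief cells of pool K and that of *Galnt1* without the chief or the neck cells of pool T, with adjusted p = 0.0512, 0.293 and 0.0665.

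The 15 genes with the largest fall by fold separated every plate, against 7.07% of all genes in that direction. They were picked by fold in these same cells, which favours such a separation. *Rassf10*, a RAS-association domain gene, had 1 UMI in chief and 619 in neck cells, a neck to chief ratio of 87.1 with an exact interval from 15.6 to 3450. *Lox*, a collagen crosslinking enzyme, had 2 and 965 UMIs, a ratio of 67.9 (18.7 to 562), and *Pros1*, protein S of the clotting system, 3 and 650 UMIs, a ratio of 30.5 (10.4 to 148). *Plac9a* had 3 and 619 UMIs. *Emp1*, a membrane protein of epithelia, went from 415 and 335 CPM to 7.98 and 13.7 CPM.

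Receptors and signalling genes stood among them. *Fgfr2*, the receptor for FGF7 and FGF10, went from 111 and 97.1 CPM to 3.42 and 4.30 CPM, and *Etv5*, a transcription factor known to follow FGF and ERK signalling, from 44.1 and 31.7 CPM to 0.570 and 1.56 CPM. *Id4*, an inhibitor of bHLH factors, was 36.0-fold lower and *Rasgrp1*, an activator of RAS, 43.8-fold lower. *Cyp2c23*, *Eps8l3*, *Teddm3* and *AU021092* were 33.7-fold, 29.4-fold, 37.0-fold and 32.1-fold lower. By amount, the largest losses were *Clu* (clusterin, 2.94-fold), *Agr2*, *Tff2*, *Car2* (a carbonic anhydrase, 6.63-fold), *Pga5*, *Gsto1* (5.45-fold), *Oit1* (18.7-fold), *Muc6*, *Tmsb4x* (1.49-fold) and *Cd24a* (1.42-fold). Against cluster 7 alone the difference of *Tmsb4x* was 1.48e-05 on the log2 scale, with an adjusted p of 1.

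Of 24 lineage transcription factors tested, 13 were lower and 2 higher, with a median of -0.689 relative to that of all genes. *Foxa3* and *Ppargc1a* were the higher ones, and with library sizes alone no member was called higher. *Foxq1*, known from mucin-secreting stomach cells, was 6.95-fold lower, *Klf5* 4.98-fold, *Klf4* 3.27-fold, *Sox9* 2.60-fold, *Hnf4a* 2.12-fold and *Gata6* 1.97-fold. *Sox9* went from 488 and 520 CPM to 187 and 200 CPM, with no overlap of plates. *Klf4* was higher in chief cells when cluster 7 stood for neck, with a log2 fold change of 0.797.

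Of 8 Notch receptors, ligands and targets tested, 5 were lower and none higher, against 21.9% and 21.0% of all genes. Their median relative to that of all genes was -0.537. None of the 8 separated all plates, and under DESeq2 3 were called lower. The target *Nrarp* had 5.50 and 9 CPM in neck and 0.570 and 2.74 CPM in chief cells, and was not called without the chief cells of pool K, with an adjusted p of 0.110, nor against cluster 7 alone, with a log2 fold change of -0.208 and an adjusted p of 0.853. The target *Hes1* stood at 302 and 462 CPM against 316 and 236 CPM, so that the pools overlapped. Its adjusted p of 0.0488 became 0.342 without the chief cells and 0.631 without the neck cells of pool T, and against cluster 2 or cluster 7 alone *Hes1* was higher in chief cells.

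The list of Wnt receptors and feedback genes had a median 0.108 above that of all genes. Of 18 tested, 4 were higher and 6 lower, against 21.0% and 21.9% of all genes. The higher ones were *Lgr5*, an R-spondin receptor, at 16.5 and 22.3 CPM against 0.320 and 2.73 CPM, and the known targets *Sp5* (12.6-fold), *Tnfrsf19* (3.74-fold) and *Axin2* (2.14-fold). An *Lgr5* UMI was found after thinning in 10.6% of chief cells, 7.78% of cluster 12, 0.747% of neck and 1.28% of parietal cells. *Axin2* lost its call without the chief cells of pool T or the neck cells of pool K, with adjusted p = 0.291 and 0.0604, and also with library sizes alone (log2 fold change 0.274, adjusted p = 0.427), against cluster 7 alone (adjusted p = 0.198) and with thinned cells (adjusted p = 0.117). *Tnfrsf19* lost its call without the chief cells of pool T, with adjusted p = 0.0886. The frizzled receptor gene *Fzd7* had 131 UMIs in neck cells and none in chief cells, at least 2.97-fold lower against the floor of 3 UMIs, and *Lgr4*, the related receptor of most epithelia, was 1.87-fold lower. None of the 18 genes separated all plates upwards, and 4 did so downwards.

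Of 22 secretagogue receptors and calcium signalling genes, 7 were higher and 8 lower, against 21.0% and 21.9% of all genes. Their median relative to that of all genes was -0.111. The cholecystokinin receptor gene *Cckar* went from 68.3 and 76.5 CPM to 829 and 839 CPM, the secretin receptor gene *Sctr* from 2.69 and 3.07 CPM to 46.2 and 57.9 CPM, and the gastrin receptor gene *Cckbr* from 1.66 and 1.13 CPM to 13.7 and 11.7 CPM. The chloride cotransporter gene *Slc12a2* was 3.23-fold and the ER calcium pump gene *Atp2a3* 2.4-fold lower.

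Of 25 proliferation genes, 10 were lower and 1 higher, against 21.9% and 21.0% of all genes. Their median relative to that of all genes was -0.658. *Ccnd1*, the G1 cyclin D1, went from 115 and 119 CPM to 6.27 and 11.3 CPM and *Mcm3*, a helicase subunit of DNA replication, was 4.36-fold lower. *Mki67* was not called, at 5.13 and 8.21 CPM in chief and 4.03 and 6.07 CPM in neck cells, but was called higher in chief cells against cluster 7 alone, with a log2 fold change of 1.92 and an adjusted p of 0.00362. *Rrm2* was the member called higher, from 2.11 and 4.07 CPM to 7.41 and 12.1 CPM, and was not called without the chief cells of pool T, with an adjusted p of 0.215. Of 48 cytosolic ribosomal proteins 25 were lower and 1 higher, a median of -0.252 relative to that of all genes, with *Rps19* 1.87-fold lower, and reads of these genes may be shared with their pseudogenes. Of 34 lysosomal genes 12 were higher and 7 lower, a median 0.151 above that of all genes, and with library sizes alone 1 was higher and 30 lower. *Tfeb*, their transcriptional regulator, was 3.06-fold higher at 10.3 and 16.4 CPM. *Tfeb* starts 2430 bases past the end of the far more abundant *Pgc*, on the same strand. Whether reads of *Pgc* were counted for *Tfeb* was not tested. Of 8 mitochondrial genes tested, 3 were higher and none lower, a median 0.321 above that of all genes, and with library sizes alone 1 was higher and 7 lower. The largest change was that of *mt-Nd6* (2.99-fold).

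Immediate early genes, which are switched on soon after a stimulus such as tissue dissociation, were called lower in 5 of 20 cases and higher in none. The share called lower was near the 21.9% of all genes tested, and the median relative to that of all genes was -0.257. *Fos* had 905 CPM in neck cells of pool K and 2111 CPM in pool T, against 496 and 566 CPM in chief cells. Per 10000 UMIs it was 36.0 and 37.1 in cluster 0, 2.61 and 3.21 in cluster 2 and 1.60 and 1.82 in cluster 7. Cluster 0 held 135 of 545 neck cells in pool K and 336 of 529 in pool T. Against cluster 2 or cluster 7 alone *Fos* was higher in chief cells, with log2 fold changes of 1.19 and 1.90, and *Nr4a1* likewise, with 3.78 and 3.02. In the comparison with all neck cells *Nr4a1* was 2.71-fold lower with an adjusted p of 0.0453, which became 0.264 and 0.0662 without the chief cells of pool K or T and 0.672 without the neck cells of pool T. *Jun* and *Atf3* were not called in the comparison with all neck cells, with log2 fold changes of 0.57 and 0.21. With the pool as a block *Jun* was called higher in chief cells, with an adjusted p of 0.00773. Without the neck cells of pool T both were called higher, with log2 fold changes of 1.48 for *Jun* and 1.23 for *Atf3*.

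Markers of other cell types were counted in the same sums. The 3 parietal markers summed to 994 and 855 CPM in chief, 285 and 234 CPM in neck and 45636 and 42505 CPM in parietal cells, and *Atp4a*, the proton pump subunit, was 4.86-fold higher in chief than in neck cells while *Tesc*, also in the parietal list, was 11-fold lower. Of the 6 genes of the pit list tested, *Psca*, *Muc5ac*, *Gkn1* and *Gkn2* were higher in chief cells, and with library sizes alone 1 member was higher and 1 lower. The 4 pit markers, which do not include *Psca*, summed to 1286 and 2323 CPM in chief, 1090 and 1362 CPM in neck and 146020 and 156440 CPM in mature pit cells. The 4 endocrine markers summed to 411 and 140 CPM in chief and 67.3 and 69.7 CPM in neck cells, mostly by *Ghrl* in chief cells of pool K, at 338 CPM against 70.4 CPM in pool T. Without the chief cells of pool K *Ghrl* was not called, with an adjusted p of 0.332. Of the defining markers, 2 of 3 of tuft cells, 1 of 2 of leukocytes and 3 of 4 of stromal and endothelial cells had no UMI in chief cells. In the longer marker lists, 3 endocrine, 1 tuft, 1 leukocyte and 2 stromal or endothelial genes passed the filter, of which 3, 0, 0 and 1 were higher and none lower. What part free RNA of these cells had in the chief sums was not tested.

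Cluster 12 was then placed between both types. Cells of this cluster had a median of 20520 UMIs, and the comparison rests on 99 and 74 of them. Against it, 1641 genes were higher in chief cells (13.1% of those tested) and 1644 lower (13.1%), and with library sizes alone 470 and 6256. Without the cluster 12 cells of pool K the counts were 950 and 1025, and without the chief cells of pool K 1062 genes were lower. Over the 543 genes called higher in chief than in neck cells by at least 1 on the log2 scale, with a mean of at least 20 CPM in the higher type, cluster 12 lay at a median of 30.3% of the way from neck to chief on the log2 scale, and over the 621 called lower at 23.3%.

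Genes gained in chief cells fell into unlike groups in cluster 12. *Cblif* had 8114 and 9872 CPM there, *Clps* 47192 and 58790 CPM, *Pla2g1b* 26035 and 34676 CPM and *Furin* 1826 and 2639 CPM, all far above neck cells. *Pgc* took 20.5% and 19.6% of the UMIs of cluster 12, more than the 18.1% and 17.7% of chief cells. Against cluster 12 its log2 fold change in chief cells was 0.44, and -0.169 with library sizes alone. *Chia1* and *Psca* had 130 and 80.0 CPM and 562 and 844 CPM, far nearer to neck than to chief cells, and the difference to chief cells was 8.19 ± 0.43 and 5.26 ± 0.20 on the log2 scale (SE). That of *Cblif* was 1.32 ± 0.33, with an adjusted p of 0.0081, which became 0.0864 without the cluster 12 cells of pool K.

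Several mucous genes stood at or above the neck level in cluster 12, but *Tff2* did not, at 1978 and 3433 CPM against 6120 and 6518 CPM in neck cells. *Muc6* had 1483 and 1739 CPM, *A4gnt* 640 and 612 CPM and *Pga5* 2714 and 3554 CPM, and *Gkn3* stood at its highest, 1470 and 2122 CPM. The 5 neck mucus genes lower by at least 1 on the log2 scale, which leave out *Tff2*, lay at a median of -3.14% of the way to chief cells and 12 mucin glycosylation genes at -2.3%, 6 of these at or beyond the neck level, against 31.2% for the ER genes and 32.5% for the amino acid genes that were higher. Of the 20 immediate early genes 12 were higher in chief cells than in cluster 12 and none lower, and *Fos* stood at 212 and 338 CPM there. *Fgfr2* (96.6 and 69.1 CPM) and *Etv5* (32.2 and 35.2 CPM) stood near the neck level, whereas *Id4* (45.9 and 48.0 CPM), *Emp1* (107 and 85.7 CPM) and *Teddm3* (5.85 and 1.92 CPM) were between both types or near the chief level. *Lgr5*, *Tnfrsf19* and *Axin2* had 14.1 and 17.3, 22.0 and 12.2, and 10.7 and 16.0 CPM in cluster 12 and were not called against chief cells, with adjusted p = 0.74, 0.95 and 0.56.

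**Figure D5:**
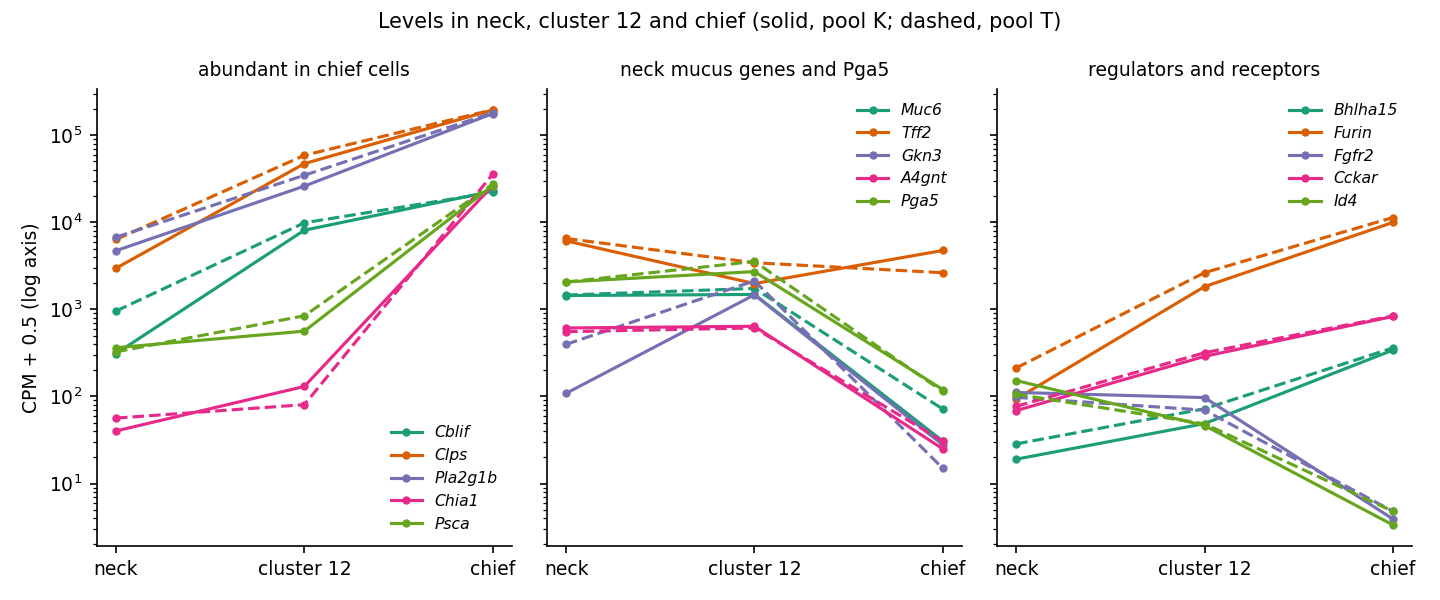
CPM with 0.5 added (log axis) in neck cells, cluster 12 and chief cells, a line for each pool (solid for K, dashed for T), in 3 groups of 5 genes. *Cblif*, *Clps*, *Pla2g1b* and *Furin* rise in steps, *Chia1* and *Psca* rise between cluster 12 and chief cells, and *Muc6*, *A4gnt* and *Pga5* hold their level in cluster 12 and drop in chief cells.

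The pools of dataset 1 came from other mice. These pools and their clusters chose no member of dataset 2. There cluster 10 (21 cells) was called chief-like from its markers, with *Cblif* at 25169 and 30660 CPM, *Chia1* at 25681 and 85194 CPM and *Bhlha15* at 499 and 376 CPM. An earlier name given by the authors called all 21 of these cells chief. The neck cluster 3 of dataset 1 (45 cells) had *Muc6* at 1817 and 2368 CPM, *Gkn3* at 5655 and 6446 CPM and *Cblif* at 2201 and 1621 CPM. Of the 5 chief markers, *Pgc* was also higher in cluster 10 than in cluster 3, while *Pga5* was lower. The neck cells of dataset 2 had 108 and 396 CPM of *Gkn3* and 311 and 957 CPM of *Cblif*. Cluster 12, kept out of them, had 1470 and 2122 CPM of *Gkn3*. The neck groups of both datasets were thus not alike, and dataset 1 also held antrum. The sums of cluster 10 held 440371 and 413391 UMIs. Of 11751 genes tested, 715 were higher (6.08%) and 818 lower (6.96%) in chief-like cells, and with library sizes alone 258 and 4182. Without the chief-like cells of tube 1 the counts were 355 and 363, without those of tube 2 they were 372 and 409, and without the neck cells of tube 2 they were 348 and 543.

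Of the 2644 genes higher in chief cells of dataset 2, 2405 were tested in dataset 1 and 2148 of these had the same direction (89.3%), while 676 were also called, which was 25.6% of the dataset 2 calls and 94.5% of those of dataset 1. Of the 2750 lower genes 2589 were tested and 2414 had the same direction (93.2%), and 714 were also called, 26.0% and 87.3% of the calls. All 15 genes with the largest rise were called in the same direction in dataset 1, and of the 15 with the largest fall all had the same direction and 13 were called. The rising genes include *Chia1*, a marker by which the chief-like cluster was named, and the falling genes include the neck marker *Muc6*. For these markers the direction was partly fixed beforehand. *Pga5* was lower again, at 423 and 334 CPM against 1110 and 1217 CPM (log2 fold change -1.62, adjusted p = 0.00078). *Pgc* missed the call there, with a log2 fold change of 1.43 and an adjusted p of 0.098, and *Bpifb1*, lower in dataset 2, had a log2 fold change of 1.63 with an adjusted p of 0.26. By list, 30 of 44 ER genes were higher and 2 lower in the chief-like cells of dataset 1, 13 of 33 COPII and COPI genes were higher and none lower, and 9 of 21 amino acid genes were higher and none lower. Of the neck mucus genes 9 of 11 and of the mucin glycosylation genes 13 of 20 were lower, and none of either list was higher. Of 23 lineage factors 8, of 25 proliferation genes 10 and of 47 ribosomal protein genes 11 were lower, and none higher. Other lists were less alike in the 2 datasets. Of 16 Wnt genes 2 were lower and none higher, and no member was called of 8 Notch and 8 mitochondrial genes. Of 6 genes of the pit list 1 was higher and 1 lower. The neck mucus list holds neck markers such as *Muc6*.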

How the data were processed

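The authors counted UMIs per gene and well from Quartz-Seq2 libraries, after splitting reads by well barcode with Drop-seq tools and aligning them with STAR to GRCm39 with Gencode M27. The deposited counts are raw, and the tables summed here hold the cells kept by the authors, while plate totals came from tables of all wells. Whether the counting used strand is not given in the sources used here, and overlapping genes such as *Creg2* and *D930019O06Rik* may share reads. The authors' annotation gave each kept cell its plate, pool and cluster, with cells of fewer than 2500 detected genes removed by them, and its mitochondrial percent of UMIs was deposited by the authors and used as given. Doublets were not called again. The totals of all 3993 cells were checked and equalled those in the annotation.

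UMIs were summed for each cluster and pool. Sums of 7 epithelial types (14 sums) entered 1 edgeR quasi-likelihood fit (edgeR 4.0.16 in R 4.3.3) with TMM scaling and the default expression filter, and p-values were adjusted by Benjamini-Hochberg over all 12567 genes. Genes with adjusted p below 0.05 were called. Dataset 1 was fitted separately (22 sums, 11751 genes). With 2 pools a type, p-values measure the spread between pools. Sums of 1 pool come from the same mice, so pools pair the samples by design, and the deviations of chief and neck sums from their type means correlated at 0.153.

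Named genes were the 15 rising and 15 falling most by fold among genes that passed the test, with a minimum in the higher type of 10 UMIs in each pool and of 20 CPM on average, the 10 rising and 10 falling most in CPM, members of the gene lists, and *Cblif*, *Muc6*, *Pgc*, *Sox9*, *Tff2*, *Lgr5*, *Tnfrsf19*, *Hes1* and *Spdef*. Some genes that the rule covers are not reported here. *Pla2g1b*, *Furin*, *Nupr1* and the other genes of largest CPM change came from that rule. The cells compared, the 22 gene lists and the tests were chosen with earlier results of these data known. Where 1 to 3 UMIs were counted in the lower type, the ratio has a 95% exact interval, which covers counting error only, and where none were counted a floor of 3 UMIs in each sum was used. Promoters came from a RefSeq table on GRCm38.p6, which held 314 of the 434 list genes, and gene coordinates from a GRCm39 annotation, which held 131 of 133 named genes. The alternatives were other scalings (including the number of cells, chosen after seeing the data), DESeq2 1.42.0, other filters, the pool as a block, plates as units, single neck clusters, thinned cells and leaving out each sum.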

Additional observations from a re-analysis of the deposited data

Results flagged for a closer look

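On single plates, 3 of 40 groups of 6 plates held a plate far from the others by Dixon's test, which chance does in about 1 of 20 groups. *Muc6* had 442 CPM on 1 plate of chief cells in pool T, where the next plate had 88.2 CPM, and all neck plates lay above both. *Psca* had 459 CPM on 1 plate of neck cells in pool T (next 332 CPM), and *Pga5* had 2387 CPM on 1 plate of neck cells in pool K (next 2078 CPM). The pool sums of these genes contain those plates.

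The Wnt genes *Axin2* and *Lgr5* had log2 fold changes of opposite sign in the 2 datasets. *Axin2* had a log2 fold change of 1.14 in dataset 2 and -1.68 in dataset 1, and *Lgr5* 3.69 in dataset 2 and -0.57 in dataset 1. In dataset 1 *Lgr5* stood at 25.8 and 47.6 CPM in neck and 9.91 and 42.2 CPM in chief-like cells, and neither gene was called there, with adjusted p of 0.203 for *Axin2* and 0.651 for *Lgr5* by edgeR. The difference between the datasets was not tested.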

How the results depend on the processing

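Scaling moved the counts most. Without TMM factors 670 genes were higher and 8985 lower in chief than in neck cells, 470 and 6256 against cluster 12, and 258 and 4182 in dataset 1. With the number of cells as library size the counts were 1635 and 4362, and with cells thinned to 10000 UMIs 1568 and 1580. Leaving out 1 sum gave 1933 to 2541 genes higher and 2036 to 2348 lower, 950 to 1404 and 1025 to 1225 against cluster 12, and 348 to 483 and 363 to 642 in dataset 1. With the pool as a replicate block 2827 genes were higher and 2949 lower (1850 and 1799 against cluster 12, 736 and 871 in dataset 1), and the block changed no call of the 133 named genes other than that of *Jun*. Of 129 named genes called, 114 kept their call and direction under all 18 alternatives that gave a value. Turned in direction without TMM factors were *C1galt1c1* (-0.437) and *Galnt1* (-0.532, and -0.124 with thinned cells), *Pgc* against cluster 12 (-0.169), and the medians of the lists of zymogens (-0.374), zymogenic factors (-0.244), COPII and COPI (-0.179), Wnt (-0.806), lysosome (-0.766), the mitochondrial genome (-0.596) and parietal markers (-0.839). With the number of cells the medians of Wnt (-0.193), lysosome (-0.151) and parietal genes (-0.229) turned as well, all values on the log2 scale, while the distance of each of these medians from that of all genes moved by under 0.01 under both scalings. Against cluster 2 alone *Fos* (1.19), *Gkn3* (0.868), *Hes1* (0.684) and *Nr4a1* (3.78) turned higher, and against cluster 7 *Fos* (1.90), *Hes1* (0.642), *Klf4* (0.797), *Nr4a1* (3.02) and *Tmsb4x* (1.48e-05). The cause was not tested for the changes with single clusters and thinned cells.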

Other observations

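Some genes gained or lost stood next to each other on the chromosome. These were picked after their values were seen. *Furin* (chromosome 7, 80038333 to 80055184 in GRCm39) lies 527 bases from *Fes*, a tyrosine kinase gene whose log2 fold change was 6.18 against 6.13 for *Furin*, and *Blm*, a DNA helicase gene 49297 bases away, had a log2 fold change of 7. *Pdia2* and *Arhgdig* lie 92 bases apart on chromosome 17, with log2 fold changes of 4.12 and 2.90, and *Pla2g1b* and *Msi1* 9397 bases apart on chromosome 5, with 4.97 and 7.13. On the lower side, *Cyp2c23* lies 5517 bases from *Erlin1* and 18451 bases from *Cpn1* on chromosome 19, with -4.95, -3.42 and -3.22, and *Pga5* 6596 bases from *2210404E10Rik*, with -4.15 and -4.54. Other neighbours differed. *Sirt4*, 3282 bases from *Pla2g1b*, was lower, with -2.23, and *Axin1*, 184 bases from *Pdia2*, was not called, with -0.217.

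Neck clusters also differed in *Cblif* and *Muc6*. Per 10000 UMIs, *Cblif* was 7.17 and 16.1 in cluster 0, 0.772 and 0.756 in cluster 2 and 5.37 and 4.95 in cluster 7, and *Muc6* was 34.4 and 35.0 in cluster 7, 14.5 and 16.0 in cluster 0 and 8.70 and 10.8 in cluster 2.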
